A study of Mus musculus with 6 samples.

Results

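The Krüppel-like factors (KLF) are transcription factors that bind DNA through zinc fingers at the C terminus, and 8 of their genes, Klf2, Klf3, Klf4, Klf6, Klf7, Klf9, Klf10 and Klf13, are described here. Every probe set that the platform annotation assigned to exactly 1 gene symbol, that symbol being one of the 8, was taken, which gave 24 of the 22626 probe sets that were not array controls. The cells were mouse LSK cells, a sorted bone marrow population without lineage markers and with Sca-1 and Kit on the surface, in which blood stem cells and early progenitors are concentrated. There were 3 arrays labelled as coming from Gfi1 knockout mice and 3 from wild-type mice, numbered 5, 7 and 8 in each group. The labels give no strain, age, targeted allele or pooling for either group, and no other treatment than sorting by flow cytometry, and a p-value here reflects only how these 6 samples vary. Each RNA sample of 10 ng went through 2 rounds of amplification before hybridisation.

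KLF proteins recognise GC-rich and CACCC elements and either activate or repress transcription, depending on the cofactors that their divergent N termini recruit. Klf2 is known as a factor of quiescence in T cells and endothelium, Klf4 as a factor of monocyte differentiation and as one of the reprogramming factors, and Klf6 and Klf10 as genes that serum and growth factors induce rapidly. Klf9 and Klf13 are close relatives that repress through the Sin3 complex, and Klf3 represses through the C-terminal binding proteins. Gfi1 is itself a zinc finger repressor of blood stem cells and myeloid precursors.

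The values are MAS5 signals, 1 linear intensity per probe set and array in arbitrary scanner units. The median array signal lay between 285.5 and 334.7, and the control level used here for dim signals, the highest signal among the array's 27 probe sets for spiked Bacillus RNAs, lay between 100.2 and 161.6. The single Gfi1 probe set had 692, 1163 and 1737 on knockout-labelled arrays 5, 7 and 8, against 632, 608 and 723 on the wild-type arrays of those numbers. It was not lower under the knockout label (difference 0.76 ± 0.28 (SE) on the log2 scale, limma adjusted p = 0.148), and whether it lies in the deleted part is not given in the labels, so that group is called knockout-labelled and every direction below rests on the label. Of the markers of the sort, Kit had a mean signal of 4225 ± 624 in knockout-labelled samples and 6899 ± 960 in wild-type samples (SD, n = 3 each; adjusted p = 0.0381). That call was made for 1 of 2 tested Kit probe sets and in 8 of 16 alternative settings, with an adjusted p of 0.103 after median centring. Ly6a, which encodes Sca-1, was not analysed here.

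When same-numbered arrays were compared, Klf6, Klf4 and Klf9 had all 3, 1 of 1 and 1 of 3 tested probe sets called lower. In that comparison 3.53% of all tested probe sets were called lower on knockout-labelled arrays and 2.36% higher. Without that pairing 0 of the 14 tested KLF probe sets were called. Upstream sequences are shown for Klf6, Klf4, Klf9 and Klf2, the last of which shared the array order of Klf4 and Klf6 but not their difference. Each is the 250 bases before the annotated start of the gene in RefSeq (GRCm38.p6), 5′ to 3′ on the strand of the gene, at chr13:5861239-5861488 (plus strand), chr4:55532476-55532725 (minus strand), chr19:23140976-23141225 (plus strand) and chr8:72318812-72319061 (plus strand). Capitals mark AATC, the core that Gfi1 binds, CACCC, a core of KLF sites, and GGGCGG, the GC box bound by Sp and KLF proteins, each searched on both strands.
Klf6: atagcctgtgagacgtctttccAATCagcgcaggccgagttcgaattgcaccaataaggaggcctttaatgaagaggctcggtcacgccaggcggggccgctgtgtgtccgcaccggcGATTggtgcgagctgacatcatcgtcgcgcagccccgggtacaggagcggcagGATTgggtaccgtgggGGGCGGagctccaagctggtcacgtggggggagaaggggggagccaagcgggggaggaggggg
Klf4: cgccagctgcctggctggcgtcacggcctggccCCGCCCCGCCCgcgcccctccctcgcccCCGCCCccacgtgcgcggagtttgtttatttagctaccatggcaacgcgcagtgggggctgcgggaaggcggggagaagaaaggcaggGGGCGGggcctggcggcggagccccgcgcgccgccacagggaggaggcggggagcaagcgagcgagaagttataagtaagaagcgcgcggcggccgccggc
Klf9: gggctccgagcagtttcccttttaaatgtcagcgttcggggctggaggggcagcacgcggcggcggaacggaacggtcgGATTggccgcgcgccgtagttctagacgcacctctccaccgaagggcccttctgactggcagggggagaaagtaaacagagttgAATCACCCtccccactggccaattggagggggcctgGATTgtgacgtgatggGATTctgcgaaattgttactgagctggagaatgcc
Klf2: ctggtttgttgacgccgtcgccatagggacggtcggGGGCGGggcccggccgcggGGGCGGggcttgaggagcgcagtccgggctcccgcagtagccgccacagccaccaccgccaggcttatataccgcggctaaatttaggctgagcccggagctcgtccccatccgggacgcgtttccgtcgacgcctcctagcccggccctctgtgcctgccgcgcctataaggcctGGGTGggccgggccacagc

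The 4 windows differed in what they held. Klf6 had 3 AATC matches and 1 GC box, Klf9 had 4 AATC matches and 1 CACCC match that shares 1 base with one of them, Klf4 had 4 GC boxes with 0 AATC and 0 CACCC matches, and Klf2 had 2 GC boxes, 1 CACCC match and 0 AATC matches. Of all 32851 windows of this length, 69.0% held AATC, 52.0% CACCC and 32.7% GGGCGG, so a single match to any of these is common. The median counts were 1, 1 and 0, and how often a window held several matches was not counted. G and C made up 64.8%, 74.0%, 59.6% and 71.2% of the Klf6, Klf4, Klf9 and Klf2 windows, against a median of 52.4%. No binding was measured in these samples, and a match of letters is not a bound site. Windows were also searched for Klf3, Klf7 and Klf13, with 5, 3 and 1 CACCC matches and 0, 1 and 1 AATC matches.

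Of the 24 probe sets, 14 were tested, at least 1 for each of the 8 genes, because their mean lay in the highest 60% of the array. In limma's fit of the group difference, 0 of the 14 passed an adjusted p of 0.05 in either direction, against 1.44% of all 13575 tested probe sets called higher and 2.19% called lower. At an unadjusted p under 0.05 there were 3, of Klf6 (2 probe sets) and Klf9, where 19.6% of all tested probe sets reached that level (23.5% in the blocked fit described next). The differences lay below 0 for 12 of the 14, with a median of -0.38 on the log2(signal + 16) scale, while 51.1% of all tested probe sets lay below 0, with a median of -0.01. Probe sets of 1 gene share a transcript and do not count as independent members. By the brightest probe set of each gene, 6 of the 8 genes lay below 0, with a median of -0.24. In none of the 14 did the 3 knockout-labelled arrays lie wholly below or above the 3 wild-type arrays, which was seen for 12.1% of all tested probe sets in the lower direction and 11.9% in the higher.

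The same-numbered arrays varied together weakly (correlations of 0.159, 0.168 and 0.238), and the picture within pairs was different. When limma's fit held the sample number as a block, 5 of the 14 KLF probe sets were lower in the knockout-labelled arrays and 0 were higher, against 3.53% and 2.36% of all tested probe sets. The 5 were the 3 probe sets of Klf6, the brighter one of Klf4 and 1 of 3 tested for Klf9. The count was 1 with no brightness filter (0.411% of all 22626 probe sets lower, 0.194% higher), 1 with eBayes without trend and 1 without the pair numbered 7, and Klf6 probe set 1433508_at was the one called each time. Of the 14, 6 were lower in all 3 pairs and 0 were higher in all 3, compared with 22.8% and 21.8% of all tested probe sets.

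**Figure D1:**
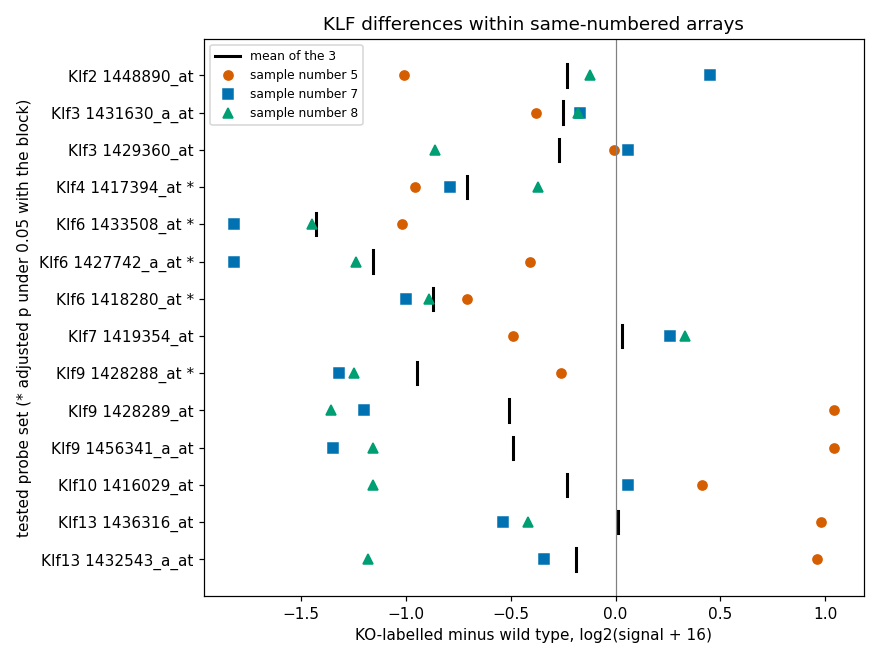
Difference between the knockout-labelled and the wild-type array of each sample number, in log2(signal + 16), for the 14 tested KLF probe sets; symbols give the sample number, the black bar their mean, and an asterisk an adjusted p under 0.05 with the block. All 3 symbols lie below 0 for Klf4, the 3 Klf6 probe sets, Klf3 1431630_a_at and Klf9 1428288_at. For Klf7, Klf13 and 2 Klf9 probe sets number 5 lies on the other side of 0 from numbers 7 and 8.

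Klf6, a zinc finger activator that is induced early after many stimuli, had the largest difference among the 14 tested KLF probe sets. Its brightest probe set, 1433508_at, had signals of 3138, 1283 and 628 on knockout-labelled arrays 5, 7 and 8, against 6364, 4573 and 1746 on wild-type arrays 5, 7 and 8. Each knockout-labelled array lay below the wild-type array of its number, but knockout-labelled 5 lay above wild type 8, so the groups overlapped. The means were 1683 ± 1302 in knockout-labelled and 4228 ± 2328 in wild-type arrays (SD, n = 3 each), a ratio of 0.398. The difference was -1.43 ± 0.50 (SE) without the block (limma adjusted p = 0.130) and -1.43 ± 0.19 with it (adjusted p = 0.00302). Within the pairs numbered 5, 7 and 8 it was -1.02, -1.82 and -1.45. Without the block, the adjusted p was below 0.05 only with knockout-labelled 5 or wild type 8 left out, among the 6 single arrays that were left out.

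The other Klf6 probe sets moved the same way. Probe set 1427742_a_at had 1266, 338 and 228 on knockout-labelled arrays 5, 7 and 8, against 1689, 1230 and 560 on the wild-type arrays, a difference of -1.16 ± 0.50 (SE; adjusted p = 0.223, with the block 0.0329). Probe set 1418280_at had 832, 384 and 216, against 1373, 785 and 413 in wild type, a difference of -0.87 ± 0.44 (adjusted p = 0.308, with the block 0.0349). In all 3 probe sets the array numbered 5 was the highest of its group and the array numbered 8 the lowest, in both groups. Whether fewer cells expressed a gene or each held less of its RNA cannot be told apart in these bulk samples.

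Klf4, which encodes a factor that promotes monocyte differentiation and restrains proliferation, had signals of 3262, 2168 and 1352 on knockout-labelled arrays 5, 7 and 8, against 6341, 3759 and 1754 on wild-type arrays 5, 7 and 8. The knockout-labelled array was the lower in each pair, and the groups overlapped. The means were 2261 ± 959 and 3952 ± 2300 (SD, n = 3 each), and the difference was -0.71 ± 0.38 (SE; limma adjusted p = 0.340) without the block and -0.71 ± 0.17 with it (adjusted p = 0.0382). The pair differences were -0.96, -0.79 and -0.37. The second Klf4 probe set, 1417395_at, was too dim to be tested, with 271, 91.5 and 116 on knockout-labelled arrays, against 391, 207 and 74.5 on wild-type arrays, and lay at or below the control level on 1 array of each group.

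Klf2 had the same array order as Klf4 and Klf6 without their group difference. Its only probe set had 702, 564 and 285 on knockout-labelled arrays 5, 7 and 8, against 1430, 407 and 312 on wild-type arrays 5, 7 and 8. The pair differences were -1.01 for number 5, 0.45 for number 7 and -0.12 for number 8. The difference was -0.23 ± 0.46 (SE; adjusted p = 0.847, with the block 0.674), and it was 0.43 without wild type 5 and 0.14 without knockout-labelled 8.

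**Figure D2:**
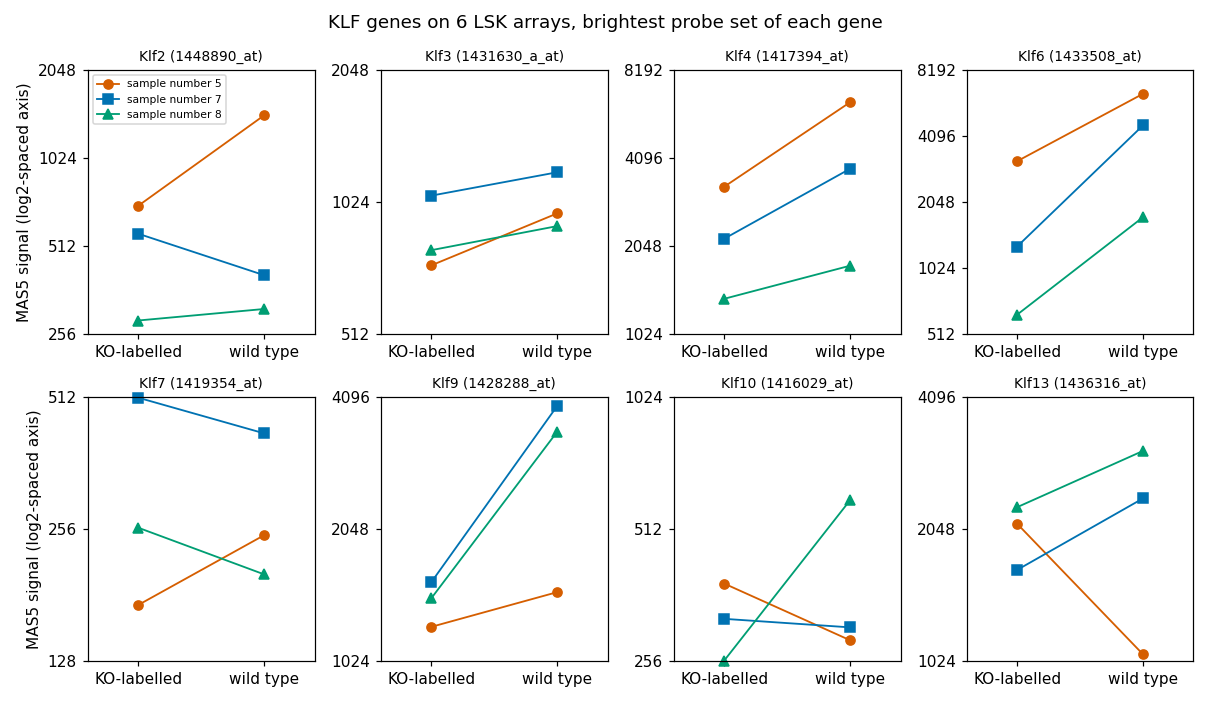
MAS5 signal on a log2-spaced axis for the brightest probe set of each of the 8 KLF genes, knockout-labelled arrays on the left and wild-type arrays on the right, with lines joining the arrays of 1 sample number. For Klf4 and Klf6 all 3 lines are lower on the left and number 5 lies above number 7 and number 8 in both groups; for Klf9 the wild-type arrays 7 and 8 stand at 3904 and 3411 above the other 4 arrays.

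The order of the sample numbers was the same in both groups for some of these genes. In both groups, Klf2, Klf4 and the 3 Klf6 probe sets were highest on the array numbered 5 and lowest on the array numbered 8. These were 5 of the 14 tested, and 5.05% of all tested probe sets held that order. The order was read from these probe sets, 3 of them of 1 gene, so the share is a description only. Klf9 probe set 1428288_at also kept 1 order in both groups, 7, 8, 5 from high to low. A limma F test of the sample number beside the group, added after the data were seen, gave an adjusted p of 0.0369 for Klf6 probe set 1433508_at, where 0.0368% of all tested probe sets passed. It gave 0.0777 for Klf4, 0.0777 for Klf6 probe set 1418280_at, 0.150 for Klf6 probe set 1427742_a_at and 0.258 for Klf2, so 1 of the 5 passed. The labels do not say what the number stands for.

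Klf9, a repressor that glucocorticoid and thyroid hormones induce, differed in the pairs numbered 7 and 8 more than in the pair numbered 5. Probe set 1428288_at had 1227, 1549 and 1424 on knockout-labelled arrays 5, 7 and 8, against 1472, 3904 and 3411 on wild-type arrays 5, 7 and 8. All 3 knockout-labelled arrays lay close together, and wild type 5 lay among them. The means were 1400 ± 162 and 2929 ± 1286 (SD, n = 3 each), and the difference was -0.95 ± 0.29 (SE; limma adjusted p = 0.0947, with the block 0.0358). The pair differences were -0.26, -1.32 and -1.25.

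In the other tested Klf9 probe sets the pair numbered 5 went the other way. Probe set 1428289_at had 1780, 1265 and 1461 on knockout-labelled arrays, against 856, 2930 and 3779 on wild-type arrays 5, 7 and 8. Probe set 1456341_a_at had 1477, 906 and 1013, against 709, 2329 and 2281. Their differences were -0.51 ± 0.40 and -0.49 ± 0.37 (SE; adjusted p = 0.533 and 0.512). With wild type 5 left out, all 3 probe sets were lower in the knockout-labelled arrays, by differences of -1.38, -1.15 and -1.05 (adjusted p = 0.00315, 0.0135 and 0.0327), against 2.04% of all tested probe sets called lower and 0.928% higher in that fit. The 4 dimmer Klf9 probe sets were not tested and had signals from 51.0 to 231 on knockout-labelled and from 23.9 to 246 on wild-type arrays. Their mean differences were -0.60 for 1436763_a_at, 0.05 for 1452723_at, 0.50 for 1436952_at and 0.17 for 1422264_s_at, so they did not share 1 direction.

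Klf13, a close relative of Klf9, showed the same split of wild type 5 from wild type 7 and 8. Probe set 1436316_at had 2107, 1654 and 2298 on knockout-labelled arrays 5, 7 and 8, against 1062, 2407 and 3087 on wild-type arrays 5, 7 and 8. Its pair differences were 0.98, -0.54 and -0.42, and its difference was 0.01 ± 0.31 (SE; adjusted p = 0.997), or -0.44 without wild type 5. Probe set 1432543_a_at had 938, 649 and 396, against 473, 827 and 916, a difference of -0.19 ± 0.31 (adjusted p = 0.809). The third, 1456030_at, stayed below the control level on all 6 arrays.

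Klf3, a repressor whose loss in mice alters B cell development, had 1 bright probe set that spanned 0.69 log2 units over the 6 arrays, the least among the 14 tested. Probe set 1431630_a_at had 734, 1058 and 795 on knockout-labelled arrays 5, 7 and 8, against 964, 1196 and 902 in wild type, lower in each pair, with a difference of -0.25 ± 0.21 (SE; adjusted p = 0.581). Probe set 1429360_at had 341, 358 and 205, against 344, 342 and 386, a difference of -0.27 ± 0.27 (adjusted p = 0.652). The dim probe set 1421604_a_at read 9.87, 11.7 and 6.26 on knockout-labelled arrays, against 138, 132 and 54.9 on wild-type arrays, so its groups did not overlap. It was above the control level only on wild type 7, so no fold is given. It was left out by the brightness filter, and with no filter it had an adjusted p of 0.0359 (0.0524 with the block), where 0.526% of all 22626 probe sets were called lower and 0.305% higher.

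Klf10, a gene of the early response to TGF-beta, and Klf7, a factor first described as widely expressed, differed by less than their spread. Klf10 had 385, 320 and 257 on knockout-labelled arrays 5, 7 and 8, against 286, 306 and 596 in wild type, a difference of -0.23 ± 0.30 (SE; adjusted p = 0.741). The wild-type mean rested on wild type 8, without which the difference was 0.09. Klf7 probe set 1419354_at had 172, 510 and 258 on knockout-labelled arrays, against 248, 423 and 202 in wild type, a difference of 0.03 ± 0.38 (adjusted p = 0.978). Its 3 dimmer probe sets, 1419356_at, 1449439_at and 1419355_at, were not tested, with mean differences of 0.04, 0.02 and -0.19. Of these, 1419355_at stayed below the control level on all arrays.

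As sums, immediate early genes and neutrophil markers were highest on the array numbered 5 in each group, as Klf6 and Klf4 were. The summed signal of 17 immediate early genes, a class that sorting and handling of cells are known to switch on, ran from 57825 to 93054 on knockout-labelled and from 97383 to 122643 on wild-type arrays, with the array numbered 5 the highest of each group. Of the 16 tested, 4 fell and 0 rose, and 6 fell with the block. Nr4a1 and Egr1, both zinc-binding transcription factors of the early response, fell by 1.12 ± 0.15 and by 1.12 ± 0.22 (SE) on the log2 scale. Ier2 fell by 1.03 ± 0.16 and Dusp2 fell by 0.81 ± 0.21. None of these 4 genes was highest on wild type 5. On wild-type arrays 5, 7 and 8, Nr4a1 had 17730, 24330 and 20265, and Ier2 had 5589, 5894 and 7294. Of the 16 tested, 7 other genes ran from high to low in the order 5, 7, 8 in both groups. That order was held by 5.05% of all tested probe sets. Nr4a1 and Ier2 passed in 17 of 17 alternative settings, Egr1 in 12 and Dusp2 in 7, with an adjusted p for Dusp2 of up to 0.204. The summed signal of 7 neutrophil markers, none of them at 0, ran from 4721 to 12312 on knockout-labelled and from 19776 to 40644 on wild-type arrays, again highest at number 5. Of those 7, 5 fell and 0 rose, 7 fell with the block, and 3 held the order 5, 7, 8 in both groups. The part of handling or of carried-over neutrophils in the KLF differences was not tested.

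**Figure D3:**
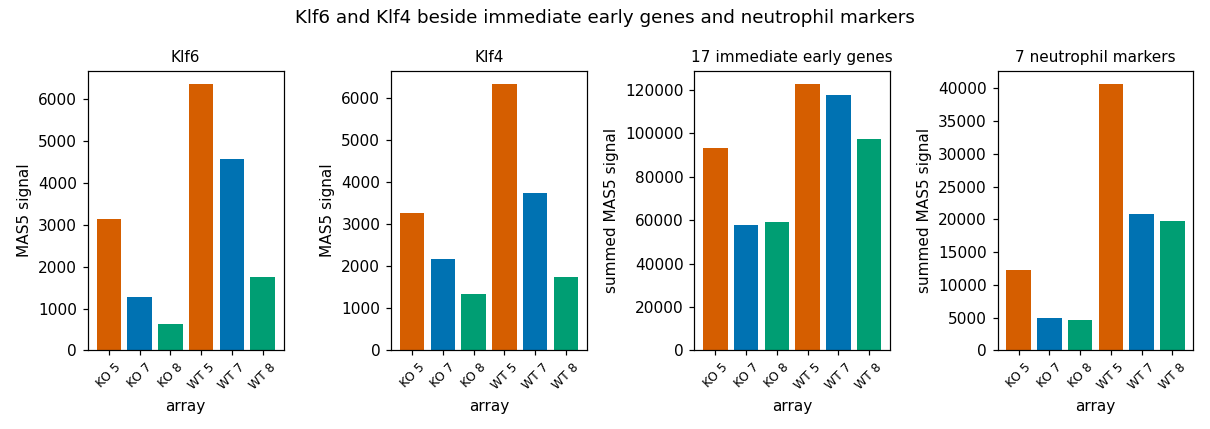
Signal of Klf6 (1433508_at) and Klf4 (1417394_at), and summed signal of 17 immediate early genes and 7 neutrophil markers, on each array, knockout-labelled (KO) before wild type (WT); bars start at 0 and colours give the sample number. The bar of wild type 5 is the tallest in all 4 panels, and the array numbered 5 is the tallest of the knockout-labelled group in each.

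Markers of other cell types that a sort could hold were also summed. The summed signal of 7 monocyte markers ran from 16571 to 18748 on knockout-labelled and from 10746 to 11250 on wild-type arrays, with Ccr2 and Csf1r higher among 6 tested (2.08 ± 0.29 and 0.69 ± 0.17 (SE)). Ccr2 passed in 17 of 17 alternative settings and Csf1r in 7 of 17, with an adjusted p of up to 0.153. The Ccr2 call was made for 1 of 2 tested probe sets, with the other at 1.11, and that of Csf1r for all 3. The 6 endothelial markers summed to between 1760 and 2261 and to between 1921 and 2250, with 0 of 4 tested past the threshold. The 5 T cell markers summed to between 354 and 558 and to between 543 and 596, none was bright enough to be tested, and Cd4 was below the control level on all arrays. B cell markers summed to between 899 and 1407 and to between 1200 and 1453, and erythroid markers to between 1550 and 2801 and to between 2030 and 3047, with 0 of 3 tested in each list past the threshold.

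Among genes that act upstream of Klf2 and Klf4, 2 of 3 tested MEF2 factors, Mef2c and Mef2a, were lower in the knockout-labelled arrays. Mef2c, a MADS-box factor that also acts in lymphoid progenitors, had 2502, 3083 and 2832 on knockout-labelled arrays, against 7620, 7969 and 3965 in wild type, without overlap, and fell by 1.15 ± 0.23 (SE; limma adjusted p = 0.0177). Mef2a had 1276, 1516 and 1349, against 2399, 2648 and 1946, and fell by 0.74 ± 0.19 (adjusted p = 0.0440). These 2 were the members called of 6 tested, 0 rose, all 6 lay below 0, and the median was -0.61. Mef2d, the remaining MEF2 gene, stood at -0.44 ± 0.18 (adjusted p = 0.186, with the block 0.0923), and its other probe set at 0.06. Foxo3 stood at -0.85 ± 0.23 (adjusted p = 0.0630, with the block 0.0485). Of 5 tested probe sets of Mef2c and 4 of Mef2a, 2 each were called lower. Mef2c passed in 11 of 17 alternative settings and Mef2a in 8 of 17.

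**Figure D4:**
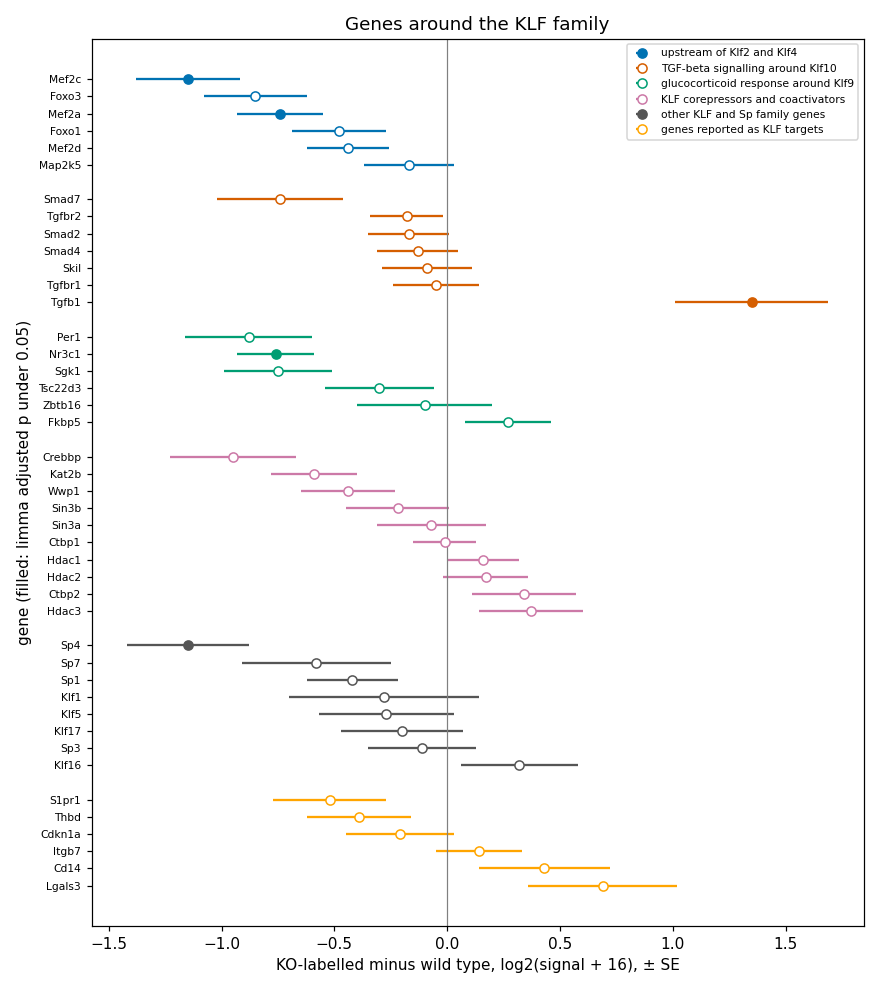
Difference between knockout-labelled and wild-type arrays (log2(signal + 16), ± SE of limma's fit) for the tested genes of 6 lists around the KLF family, brightest probe set of each; filled points have an adjusted p under 0.05. Filled points stand at -1.15 for Mef2c and Sp4, -0.74 for Mef2a, -0.76 for Nr3c1 and 1.35 for Tgfb1.

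The signals that feed Klf9 and Klf10 held 1 called gene each. Nr3c1, the glucocorticoid receptor, had 1331, 1323 and 1317 on knockout-labelled arrays, against 2088, 2332 and 2348 in wild type, and fell by 0.76 ± 0.17 (SE; adjusted p = 0.0270). It was the 1 gene called lower of 6 tested in the glucocorticoid list, whose median was -0.52. Sgk1 and Per1, which glucocorticoids induce, stood at -0.75 ± 0.24 and -0.88 ± 0.28 (adjusted p = 0.102 and 0.101, with the block 0.0463 and 0.0511). The other genes of that list, Fkbp5, Tsc22d3 and Zbtb16, stood at 0.27 ± 0.19, -0.30 ± 0.24 and -0.10 ± 0.30 by their brightest probe sets. Their limma adjusted p was 0.488, 0.539 and 0.906. Over all tested probe sets of each gene, Fkbp5 ran from 0.03 to 0.27, Tsc22d3 from -0.84 to -0.30 and Zbtb16 from -0.10 to 0.33. Tgfb1, the ligand of the pathway that induces Klf10, had 359, 377 and 341 on knockout-labelled arrays, against 79.7, 226 and 121 in wild type, and rose by 1.35 ± 0.34 (adjusted p = 0.0458). Wild type 5 lay below its array's control level of 161.6, so the size of that difference rests in part on a signal that was not above background. It was the only one of 7 tested TGF-beta genes to pass, and the remaining 6 lay below 0, Smad7 at -0.74 ± 0.28 (adjusted p = 0.157). Nr3c1 passed in 10 of 17 alternative settings and Tgfb1 in 9 of 16. The Nr3c1 call was made for 1 of 2 tested probe sets, with the other at -0.68.

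Of the rest of the family and its cofactors, 1 gene passed. Of 18 other KLF and Sp genes 12 had a probe set and 8 were tested, of which Sp4, an Sp factor that binds GC boxes, fell by 1.15 ± 0.27 (SE; adjusted p = 0.0348), with 359, 189 and 367 on knockout-labelled arrays, against 739, 686 and 594 in wild type. It passed in 7 of 16 alternative settings. Sp1 stood at -0.42 ± 0.20 (adjusted p = 0.265). Of 10 tested corepressors and coactivators of KLF proteins 0 passed in limma with or without the block. At an unadjusted p under 0.05 there were 2, where 19.6% of all tested probe sets reached that level. These were Crebbp at -0.95 ± 0.28 and Kat2b at -0.59 ± 0.19 (limma adjusted p = 0.0797 and 0.103). Of 6 tested genes reported as KLF targets 0 passed in limma, 0 at an unadjusted p under 0.05, with S1pr1, a Klf2 target in T cells, at -0.52 ± 0.25 and Lgals3, which Klf3 represses, at 0.69 ± 0.33 (adjusted p = 0.281 and 0.269).

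The genes with the most similar profile over the 6 arrays were found from the root mean square difference between mean-centred log2 signals, for each KLF gene whose brightest probe set spanned at least 1 log2 unit. For Klf6 they were Slfn4, S100a9 and Rsad2, at 0.37, 0.41 and 0.41. S100a9, also on the neutrophil list, stood at -1.84 (adjusted p = 0.0196, past the threshold in 10 of 17 alternative settings), Rsad2 at -1.70 (0.0286) and Slfn4 at -0.89 (0.267, with the block 0.0489). For Klf4 they were Sdc1, Blnk and Hoga1, at 0.21, 0.24 and 0.25, and for Klf9 Sla, Gabbr1 and H2-D1, at 0.12, 0.15 and 0.17. For Klf2 they were Surf2, Hmga2 and Mgll, at 0.30, 0.32 and 0.36. Klf7 lay nearest to Zfp91, Klf10 to Hid1 and Klf13 to Zfp746, at 0.18, 0.09 and 0.13, and Klf3 spanned 0.69 and was not compared. Among 13575 probe sets and 6 arrays some close profiles always exist, so these are a description only.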

How the data were processed

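RNA of 6 LSK samples was measured on single-colour Affymetrix arrays. The deposited values are linear intensity, made by the authors with MAS5 per the submitters' processing notes, with settings not stated and no detection calls used here. The 6 columns had been brought to 1 scale: after trimming 2% of values from either end their means lay between 1000.33 and 1000.37. The number of arrays limits the precision.

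From these, log2(signal + 16) was computed without further normalization, so that folds of dim probe sets are understated. Of 22690 probe sets, 64 controls were left out, and 20380 of the remaining 22626 had 1 gene symbol, of which 20351 matched a RefSeq gene (GRCm38.p6) with 0 symbols changed. The 13575 probe sets in the highest 60% by mean log2 value (signal above about 198.5) were tested with limma 3.58.1 in R 4.3.3 (lmFit, eBayes with trend, two-sided, Benjamini-Hochberg over all tested, threshold 0.05), checked on simulated data. Differences are knockout-labelled minus wild type.

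The sample numbers 5, 7 and 8 were taken to pair the arrays, because same-numbered arrays deviated together weakly from their group means (correlations of 0.159, 0.168 and 0.238). Other pairs had -0.134 to -0.0307, but deviations within a group sum to 0, so these negative values are not separate support. The pairing was read from the same arrays that the blocked fit uses. In the F test of the number, 0.0368% of all tested probe sets passed. The fit with the number as a block is given beside the fit without it for each tested KLF probe set whose call differs. For other genes it is given for some only.

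The KLF members and gene lists were chosen with earlier results of these data known, and the lists came from general knowledge of these pathways. Every KLF probe set is described. Of the lists, called genes and up to 4 others with the smallest p were taken by the brightest probe set of each gene. Some of these are given only within counts, and the glucocorticoid list is given whole. The 3 nearest profiles per KLF gene were taken. Alternatives were the block, pseudocounts of 1 and 64, no filter or the highest 40%, median, quantile and cyclic loess normalization, eBayes without trend or robust, less specific probe sets left out, and each array left out.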

Additional observations from a re-analysis of the deposited data

How the results depend on the processing

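Of 231 pairs of a KLF probe set and an alternative setting, 208 kept direction and side of the threshold, 11 moved past it and 12 changed sign. With the sample number as a replicate block 5 KLF probe sets were lower, with no filter 1, and with single arrays left out 0 to 3. Those were 2 of Klf6 without knockout-labelled 5, 3 of Klf9 without wild type 5 and 1 of Klf6 without wild type 8. Blocked fits chosen after seeing the data gave 5 with cyclic loess, robust eBayes and either pseudocount, 4 with median centring or quantile normalization, 1 with no filter or eBayes without trend, and 5, 1 and 3 without the pairs numbered 5, 7 and 8, where 4 arrays remain. Over the 12 blocked fits Klf6 1433508_at passed in 12, 1427742_a_at in 9 and 1418280_at in 6 (highest adjusted p 0.0329, 0.196 and 0.198). Klf9 1428288_at passed in 8 and Klf4 in 7 (0.196 and 0.189). Of all tested probe sets, 3.53% were called lower and 2.36% higher with the block alone. With the block and no filter these shares were 0.411% and 0.194%. For the other blocked fits the shares were not counted. The blocked fits reuse the same arrays, so passing in several of them is not replication.

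Changes of sign were limited to probe sets that passed in no fit. Klf2 became 0.14 and 0.43 without knockout-labelled 8 and wild type 5 (-0.64 to 0.43 over single arrays left out), and 0.16 blocked without number 5. Klf7 became -0.37, -0.04 and -0.18 without knockout-labelled 7, wild type 5 and wild type 8 (-0.37 to 0.37), and -0.08 and -0.12 blocked without numbers 7 and 8. Klf10 became 0.09 without wild type 8 (-0.42 to 0.09) and 0.23 blocked without number 8, and Klf3 1429360_at 0.03 in that blocked fit. Klf13 1432543_a_at became 0.13 without knockout-labelled 8 (-0.47 to 0.13) and 0.31 blocked without number 8. Klf13 1436316_at became -0.01 with quantile or cyclic loess normalization (blocked too), -0.03, -0.09 and -0.44 without knockout-labelled 5, knockout-labelled 8 and wild type 5 (-0.44 to 0.32), and -0.48 blocked without number 5.

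Over all genes, 196 probe sets were higher and 297 lower. The counts were 320 and 479 with the block, 69 and 119 with no filter, 57 and 124 with eBayes without trend, 127 higher with less specific probe sets left out, 193 lower with median centring, and 34 to 266 higher and 90 to 282 lower with 1 array left out. The scalings moved the median difference by at most 0.06. The causes were not tested. Signals near the control level limit the 10 KLF probe sets that were not tested.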
